A study of Sus scrofa with 16 samples.

Results

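Interleukin and receptor genes, 10 in number, were followed in the left ventricular myocardium of young pigs after cardiac ischemia/reperfusion (IR): the ligands IL33, IL18, IL6 and IL10, the receptors IL1R1, IL1RL1, IL18R1, IL6R and IL10RA, and the decoy IL18BP. The 10 genes were chosen by symbol as interleukins of the IL-1, IL-6 and IL-10 families and their receptors, and 9 of the 10 have a row among the 22629 genes of the deposited tables. IL18BP, which binds secreted IL-18, has no row under its symbol and is given no value. The pigs were White Yorkshire-Landrace farm animals aged 1 month at surgery. In the 4 IR pigs the left anterior descending artery was occluded for 1 h and then reperfused, and in the 4 sham pigs a suture was placed around the artery and not tightened. Hearts were taken 4 weeks after surgery. Each pig gave 1 scar zone sample, taken just distal to the suture and holding both injured and viable myocardium, and 1 border zone sample, so that 16 libraries came from 8 pigs. Each of the 4 groups (IR scar, sham scar, IR border and sham border) held 2 females and 2 males. All the animals had an open chest and a suture in the myocardium, so the sham pigs are operated controls.

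Library totals of estimated counts ran from 15427663 to 49045206 (median 21822696). CPM below is the count relative to the library total after TMM scaling, and 3 counts correspond to 0.0693 to 0.204 CPM, a floor that covers counting error only. Cardiomyocyte markers were abundant in every library (7 of 7 listed, summed level 56800 to 93100 CPM). One library stood apart from its label in part: the scar zone library of pig 14, a female and the shallowest of the 16, held 4.49 CPM of the Y-linked gene DDX3Y and 6 counts of KDM5D, whereas the other 7 female libraries held at most 1.23 CPM of DDX3Y and 0 counts of KDM5D, and the male libraries held 68.4 to 103 CPM of DDX3Y. The scar zone fold changes of the members are therefore also given without pig 14.

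These genes form short circuits. IL-33 is held in the nucleus of stromal cells and released on damage, and it binds ST2, the product of IL1RL1, while IL1R1 encodes the receptor for IL-1α and IL-1β. IL-18 is made as a precursor, cut by caspase-1 in the inflammasome, and bound by the receptor chain IL18R1. IL-6 binds IL6R and then the shared chain gp130 (IL6ST), which signals through STAT3, and IL-10 binds IL10RA and IL10RB, also signals through STAT3 and restrains macrophage activation. In the heart these cytokines are known from the inflammation and fibrosis that follow infarction. IL18R1 and IL1RL1 are neighbouring genes in the pig RefSeq annotation, and IL1RL2 is the 1 protein-coding gene between IL1RL1 and IL1R1.

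IL10RA, IL6R and IL1R1 were the most abundant of the genes, while the receptor genes IL18R1 and IL1RL1 lay below their ligands IL18 and IL33. On the TPM scale, which corrects for transcript length, the median over the 16 libraries was 15.4 TPM for IL10RA, 5.39 for IL6R, 4.55 for IL1R1, 3.32 for IL33, 1.26 for IL18, 0.788 for IL10, 0.150 for IL18R1, 0.0559 for IL6 and 0.0428 for IL1RL1. IL33 exceeded IL18, and IL10 exceeded IL18R1, in 16 of 16 libraries. The neighbours IL6R and IL1R1 were not separated, with IL6R the higher in 9 of 16 libraries, and neither were IL6 and IL1RL1, with IL6 the higher in 11 of 16. The other neighbours kept their order in 13 or 14 of 16 libraries. IL6 had 151 counts over all 16 libraries, fewer than 3 counts in 11 of them and 0 in 1, where a count of 0 allows up to 0.146 CPM. IL1RL1 had 164 counts, was under 3 counts in 9 libraries and was at 0 in 4. These low genes fell below the count filter when each zone was tested alone, so 7 members were tested within a zone. The ratio of TPM to CPM of IL18 varied 2.73-fold and that of IL1RL1 3.45-fold between libraries, and that of the other 7 genes 1.61-fold to 1.82-fold.

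**Figure D1:**
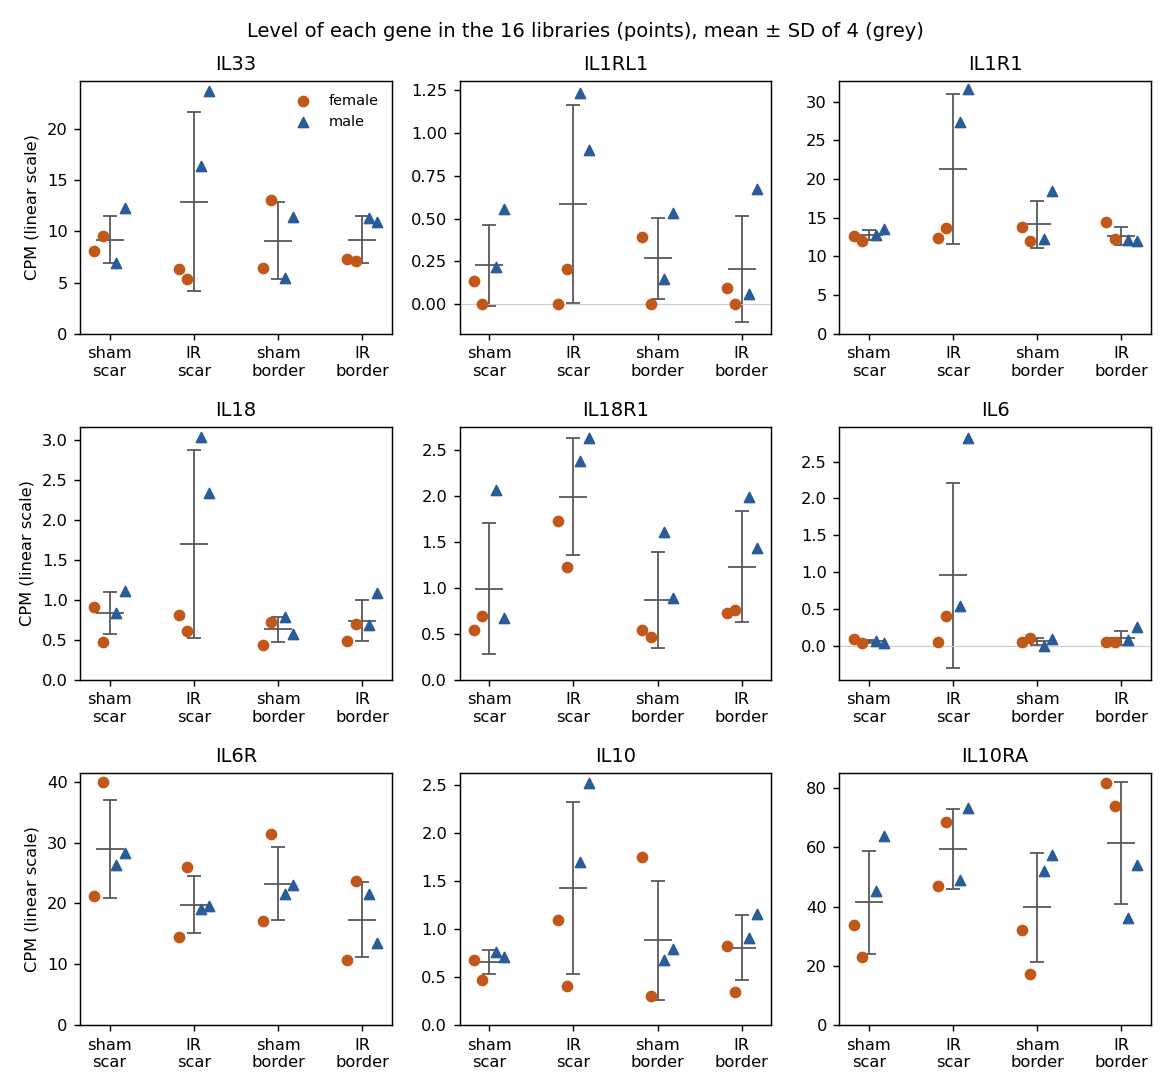
Level of the 9 listed genes in CPM (linear scale) for the 4 groups. Each point is 1 library, circles are females and triangles males, and the grey bar is the mean ± SD of 4. In the IR scar zone the 2 male pigs lie at the top of the panels of IL33, IL1RL1, IL1R1, IL18, IL18R1 and IL6, whereas IL6R and IL10RA spread without that split.

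In the scar zone, where the question was what the injury left near the occlusion site, 6 of the 7 tested members had a higher and 1 a lower fitted level in IR than in sham pigs, but none passed the adjusted threshold. IL10 was 2.22-fold, IL18 2.09-fold, IL18R1 2.01-fold and IL1R1 1.66-fold the sham level, and IL6R was 0.679-fold. The adjusted p-values of the 7 lay between 0.438 and 0.639 (edgeR quasi-likelihood test, Benjamini-Hochberg adjusted), and 0 of 14023 genes passed an adjusted p of 0.05 with a fold change of 2 (0% of genes tested). At an unadjusted p of 0.05, IL10 and IL1R1 were higher (2 of 7 members, against 6.57% of all genes tested) and IL6R was lower (1 of 7, against 4.64%). The median log2 fold change of the 7 members was 0.74, and that of all genes tested was 0.0285. The paper lists IL10, IL18 and IL18R1 under immune terms upregulated in the IR scar zone, from these same libraries. The counts and the median of the members are therefore not independent of that result. No member separated the groups completely: IR values lay above all sham values in 0 of 7 members (2.2% of all genes) and below them in 0 of 7 (2.65%). These are bulk tissue values, in which fewer cells of a type and less RNA per cell cannot be told apart.

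IL1R1 showed the tightest sham level. The sham scar libraries held 12.7, 12.04, 12.8 and 13.6 CPM, and the IR scar libraries held 12.4 (pig 2), 27.4 (pig 9), 31.7 (pig 11) and 13.7 CPM (pig 14). The IR males thus stood above every other library, while the IR females lay within or just above the sham range. The fitted log2 fold change was 0.74 ± 0.29 (SE, unadjusted edgeR p = 0.0297, adjusted p = 0.438), and the exact permutation test of 4 against 4 pigs gave p = 0.171 (two-sided, smallest possible 0.0286). Without pig 14 the log2 fold change was 0.89, and without pig 11 it was 0.49.

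In the scar zone IL33 lay on opposite sides of the sham range in the IR females and the IR males. The sham scar libraries held 8.09, 9.58, 6.87 and 12.3 CPM, the IR males 16.4 (pig 9) and 23.7 CPM (pig 11), and the IR females 6.30 (pig 2) and 5.31 CPM (pig 14). Both IR males were above all 4 sham scar libraries and both IR females were below all of them. The comparison of all 4 IR pigs with sham gave a log2 fold change of 0.49 ± 0.44 (SE, edgeR adjusted p = 0.639), which was 0.74 without pig 14 and 0.03 without pig 11. It was 0.26 with sex as a covariate and 0.19 with 1 factor of unwanted variation in the fit.

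IL1RL1, the IL-33 receptor gene, was at 53 and 30.2 estimated counts in the IR males (1.24 and 0.898 CPM), at 0 and 2.8 in the IR females, and at 0 to 14.2 in the sham scar libraries. Summed over the pigs, it was 3.39-fold higher in IR than in sham scar zones (95% exact interval of the ratio 2.12 to 5.63, counting error only). Without pig 9 the ratio was 2.16. In the border zones it was 1.03 (0.585 to 1.83), and 0.198 (0.0499 to 0.581) without pig 11, so single pigs moved it. In the scar zone the fit without a filter, which counts the spread between pigs, gave a log2 fold change of 1.40 ± 1.03 (SE, edgeR adjusted p = 0.591). Its values lay between 0.76 (without pig 9) and 2.30 (without pig 13) in the fits that lack 1 pig, with 1.66 without pig 14.

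For the IL-18 pair, IL18 was at 3.03 CPM in pig 9 and 2.34 CPM in pig 11, whereas the IR females were at 0.809 and 0.613 CPM and the sham scar libraries at 0.475 to 1.11 CPM. Its log2 fold change was 1.06 ± 0.52 (SE, edgeR adjusted p = 0.468), 1.32 without pig 14 and 0.61 without pig 9. IL18R1 was above most sham values in IR females as well as males: the IR scar libraries held 1.73 (pig 2), 2.38 (pig 9), 2.64 (pig 11) and 1.23 CPM (pig 14), and 3 of the 4 sham scar libraries held 0.542 to 0.690 CPM. The 4 IR values lay above those 3 sham values, and the overlap came from sham pig 12 at 2.06 CPM. The log2 fold change of IL18R1 was 1.00 ± 0.46 (SE, edgeR adjusted p = 0.449), 1.17 without pig 14 and 1.64 without pig 12. The log2 TPM ratio of IL18R1 over IL18 was -2.73 ± 0.47 in IR and -2.30 ± 0.94 in sham scar zones (SD over 4 pigs each, exact permutation p = 0.429).

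IL6 was near the floor of detection in most libraries, and its counts in the IR scar zone came mainly from 1 pig. The IR scar libraries held 1, 23, 94 and 6 counts (pigs 2, 9, 11 and 14), the sham scar libraries 1 or 2 counts each, and the border zone libraries 0 to 11. Summed over the pigs, IL6 had 124 counts in IR and 6 in sham scar zones, an 18.8-fold ratio on the CPM scale (95% exact interval 8.38 to 52.1, counting error only), and without pig 11 the counts were 30 and 6 and the ratio was 6.56 (2.69 to 19.3). The fit without a filter gave a log2 fold change of 3.88 ± 1.01 (SE, edgeR adjusted p = 0.434), 4.13 without pig 14 and 2.40 without pig 11. By exact permutation of log2 CPM, the difference had p = 0.0857, with pig 2 at the sham level.

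IL6R, the receptor chain that also occurs in a soluble form, went the other way. The IR scar libraries held 14.6, 19.0, 19.6 and 25.9 CPM (pigs 2, 9, 11 and 14), and the sham scar libraries 21.2, 40.0, 26.3 and 28.3 CPM (pigs 4, 5, 12 and 13). Of the IR pigs, 3 were below all sham pigs and pig 14 lay inside the sham range. The log2 fold change was -0.56 ± 0.22 (SE, unadjusted edgeR p = 0.0319, adjusted p = 0.438, exact permutation p = 0.0571), -0.71 without pig 14 and -0.36 without pig 5. The log2 TPM ratio of IL6R over IL6 was 3.33 ± 1.44 in IR and 5.64 ± 0.37 in sham scar zones (SD, n = 4 pigs each). The highest IR ratio, 4.65, was below the lowest sham ratio, 5.37 (two-sided exact permutation test, p = 0.0286, the smallest possible, and 0.229 after adjustment over the 8 ratios tested). This ratio rests on a pseudocount of 0.1 TPM where IL6 is at 1 or 2 counts: the difference between IR and sham was -2.31 and became -0.99 with a pseudocount of 1 TPM.

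IL10 was at 1.10, 1.70, 2.52 and 0.409 CPM in the IR scar zones of pigs 2, 9, 11 and 14, and at 0.475 to 0.759 CPM in the sham scar zones. Pigs 2, 9 and 11 were above all 4 sham scar libraries and pig 14, at 6 counts, was below them, while the sham border libraries spread more widely, from 0.307 to 1.75 CPM. The log2 fold change was 1.15 ± 0.48 (SE, edgeR adjusted p = 0.438), 1.43 ± 0.36 without pig 14 (adjusted p = 0.162) and 0.74 without pig 11. Its receptor chain IL10RA held 46.9, 48.99, 73.3 and 68.6 CPM in the same IR scar libraries, and the sham scar libraries held 33.99, 22.96, 45.3 and 63.7 CPM (pigs 4, 5, 12 and 13), so the groups overlapped through sham pig 13. The log2 fold change of IL10RA was 0.51 ± 0.29 (SE, edgeR adjusted p = 0.497). It was 0.43 without pig 14, 0.31 without pig 5 and 0.79 without pig 13. The log2 TPM ratio of IL10RA over IL10 differed by -0.21 between IR and sham (exact permutation p = 0.771).

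The count of members at an unadjusted p of 0.05 in the scar zone depended on single pigs. It was 5 of 8 without pig 14, where 16.7% of all genes passed in either direction, and 3 of 8 without pig 2 (18.2% of genes). It was 2 of 8 without pig 12 (7.92%), 1 of 8 without pig 4 (8.23%) and 1 of 7 without pig 13 (11.2%). It was 0 without pig 5, 9 or 11, where 5.61%, 7.01% and 5.65% of genes passed. No member reached an adjusted p of 0.05 in any of these.

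**Figure D2:**
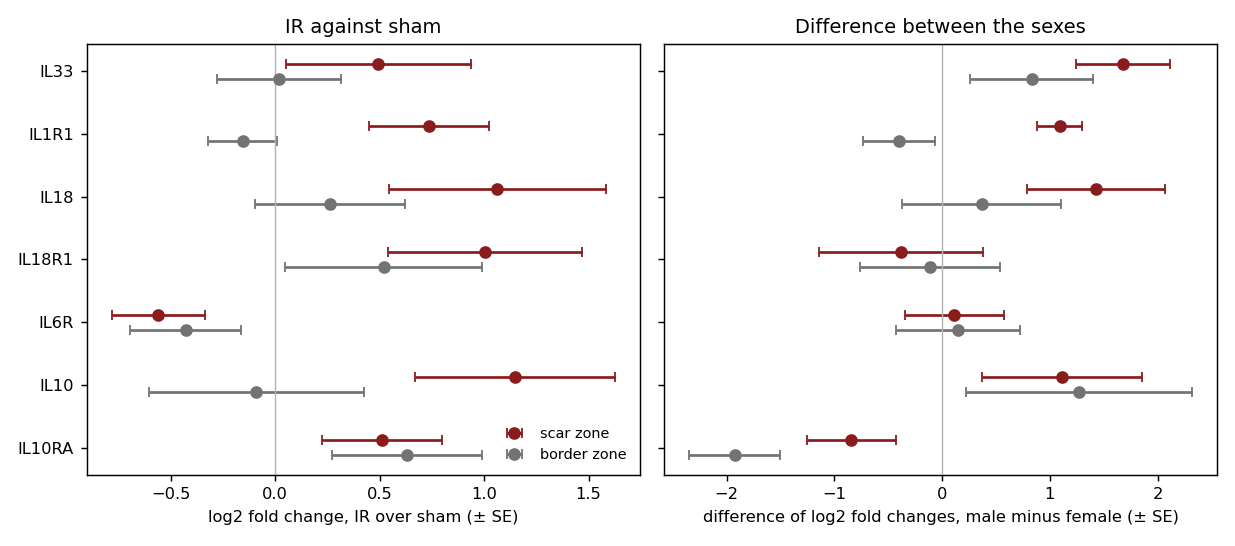
Fitted log2 differences (± SE) of the 7 members tested within each zone. The left panel gives IR over sham and the right panel the difference of that log2 fold change between males and females, with red for the scar zone and grey for the border zone. IL1R1 and IL33 lie farthest above 0 relative to their errors in the right panel in the scar zone, and IL10RA lies below 0 in the border zone.

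Males and females were then compared, as the difference of the IR effect between the sexes, with 2 pigs per sex and surgery. In the scar zone IL1R1 was 2.23-fold the sham mean in males and 1.06-fold in females, and IL33 was 2.09-fold in males and 0.657-fold in females. The difference of the log2 fold changes was 1.09 ± 0.21 for IL1R1 (SE, edgeR adjusted p = 0.0510) and 1.68 ± 0.44 for IL33 (SE, adjusted p = 0.0981). Neither passed the adjusted threshold in edgeR, both passed it in DESeq2 (adjusted p = 0.00648 and 0.0118), and IL1R1 passed it in edgeR without a filter (adjusted p = 0.0357). Without pig 14 the differences were 1.16 for IL1R1 and 1.56 for IL33 (edgeR adjusted p = 0.0986 and 0.216). That leaves 1 IR female, pig 2, which the fit assumes to vary like the pigs of the other groups, and the same assumption enters every fit of the sexes that lacks a pig. Of the 7 members tested, 0 passed the adjusted threshold with a fold change of 2, against 1.5% of all genes, and 2 were higher in the males at an unadjusted p of 0.05, against 9.62%. The 210 genes past the adjusted threshold fell to 1 without pig 12 or without pig 13. IL18 was 2.77-fold in males and 1.03-fold in females (difference 1.43 ± 0.64, SE, edgeR adjusted p = 0.281). IL10 was 2.87-fold and 1.31-fold, and the difference of 1.11 ± 0.74 (SE, edgeR adjusted p = 0.468) was 2.01 without pig 2 (adjusted p = 0.195). Without pig 2, 4 of 8 members were at an unadjusted p of 0.05, against 21.2% of genes in either direction. IL18R1 was 1.83-fold in males and 2.40-fold in females, and IL6R 0.707-fold and 0.662-fold, with differences between the sexes of -0.38 ± 0.76 and 0.11 ± 0.46 (SE) on the log2 scale. Without pig 14 the differences between the sexes were 1.24 for IL18, 0.59 for IL10, -0.61 for IL18R1, 0.58 for IL6R and -0.55 for IL10RA, with edgeR adjusted p-values from 0.425 to 0.753.

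In 6 of the 9 listed members (IL33, IL1RL1, IL1R1, IL18, IL18R1 and IL6) the male IR scar libraries were the highest 2 of all 16. Among the 8 members past the filter over 16 libraries this held for 5, and it held for 10.8% of all 14278 genes. This way of counting was chosen after the values were seen. IL1RL1, 1 of the 5, passed the filter through these same libraries (53 and 30.2 estimated counts), so it adds no support to the pattern. The same libraries stood apart in other measures. Their summed fibroblast markers (7 of 7 listed, none at 0) were at 24400 and 33200 CPM, against 4750 to 7850 CPM in the other 14 libraries. By group the fibroblast sum ranged from 4750 to 33200 CPM in IR scar, 5590 to 7430 in sham scar, 5210 to 7850 in IR border and 5170 to 7490 in sham border zones. All 7 fibroblast markers had a larger IR effect in males at an unadjusted p of 0.05, against 9.62% of all genes. Summed macrophage markers (9 of 9 listed, none at 0) were at 714 and 1150 CPM, against 270 to 550 CPM elsewhere. By group they ranged from 347 to 1150 CPM in IR scar, 307 to 494 in sham scar, 329 to 550 in IR border and 270 to 479 in sham border zones. Neutrophil markers (4 of 5 listed, CXCR2 having no row) were at 4.36 and 7.58 CPM, against at most 3.13 CPM. T and NK cell markers (7 of 7 listed) were at 44.4 and 45.8 CPM, within the 8.93 to 66.7 CPM of the others. Summed leucocyte markers (5 of 5 listed) were at 303 CPM in pig 9, above the 84.6 to 267 CPM of the others, and at 243 CPM in pig 11. The 1 listed mesothelium marker was at 10.4 and 12.8 CPM, against 4.70 to 9.04 CPM. Summed cardiomyocyte markers (7 of 7 listed) were at 56800 CPM in pig 9, below the 66400 to 93100 CPM of the other 14 libraries, and at 70400 CPM in pig 11. Summed endothelial markers (5 of 5 listed) were at 791 CPM in pig 9, below the 814 to 1140 CPM of the others, and at 946 CPM in pig 11. These libraries were also deeper, at 36509911 and 34251150 counts, and the border zone libraries of the same pigs (33521418 and 49045206 counts) held 12.1 and 12.01 CPM of IL1R1 and 11.4 and 10.97 CPM of IL33. The border zone library of pig 11 was the highest of the border zone libraries in IL18 (1.09 CPM), IL1RL1 (0.670 CPM) and IL6 (0.254 CPM). The part of cell composition and depth in the levels of the interleukin genes was not tested.

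**Figure D3:**
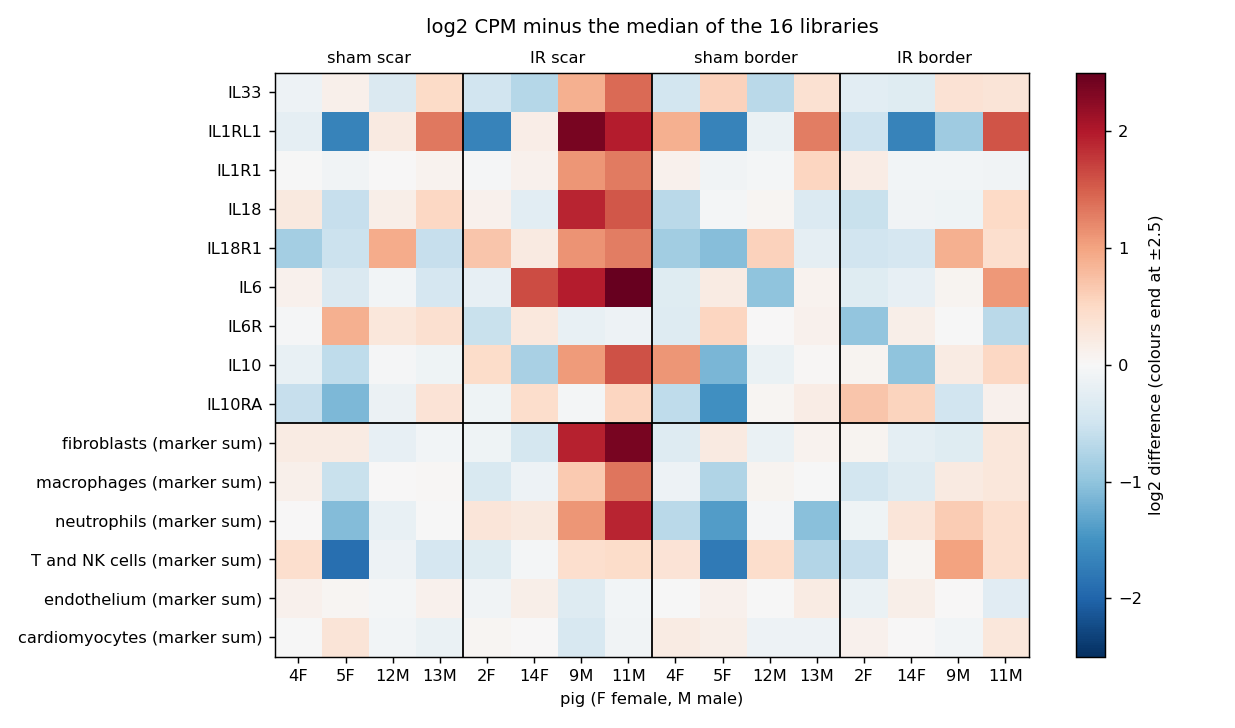
Colours show log2 CPM minus the median of the 16 libraries, for the 9 listed genes (top) and the summed CPM of 6 marker lists (bottom). Columns are libraries by group and pig, and colours end at ±2.5. The columns of pigs 9 and 11 in the IR scar block are red for most genes of the IL-1 family, for IL6 and for the fibroblast, macrophage and neutrophil sums.

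In the border zone no member passed either threshold. The 7 log2 fold changes ran from -0.43 ± 0.27 (IL6R) to 0.63 ± 0.36 (IL10RA) (SE). Their median was 0.02, and the adjusted p-values were 0.988 to 0.997 (edgeR). Both ends moved with single pigs. IL6R was -0.61 without pig 14 and -0.25 without pig 5, and IL10RA was 0.38 without pig 5 and 0.86 without pig 13. No gene passed the adjusted threshold with a fold change of 2 (0%), and 0 of 7 members passed at an unadjusted p of 0.05 (2.09% of genes higher and 1.69% lower). The groups overlapped in all 7 members, against 0.794% of genes with every IR value above and 1.24% with every IR value below the sham values. IL1R1 held 14.4, 12.1, 12.01 and 12.2 CPM in IR (pigs 2, 9, 11 and 14) and 13.8, 12.04, 12.3 and 18.5 CPM in sham border zones (pigs 4, 5, 12 and 13). IL33 ran from 7.13 to 11.4 CPM in IR and from 5.49 to 13.1 CPM in sham. IL6 had 16 counts in the IR and 5 in the sham border zones, of which pig 11 gave 11.

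IL10RA was the exception between the sexes there. The IR females held 81.8 and 73.8 CPM, the IR males 36.0 and 54.0, the sham females 32.3 and 17.4 and the sham males 51.9 and 57.5 CPM. The IR females had the highest and the sham females the lowest values, and the males lay between. The IR level was 3.13-fold the sham level in females and 0.823-fold in males, a log2 difference of -1.93 ± 0.42 (SE, edgeR adjusted p = 0.532, DESeq2 adjusted p = 0.00860). It was the 1 member of 7 lower in males at an unadjusted p of 0.05 (3.85% of genes), and 0 of 7 passed the adjusted threshold with a fold change of 2 (0.0146% of genes). In the scar zone the same difference was -0.84 ± 0.41 (SE, adjusted p = 0.322), with IR at 2.03-fold the sham level in females and 1.12-fold in males. In the border zone the leucocyte markers (5 of 5 listed) summed to 137 and 162 CPM in the IR females. They summed to 267 and 177 CPM in the IR males, 195 and 87.8 in the sham females and 219 and 146 in the sham males. Their part in the IL10RA levels was not tested.

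The zones were compared next. Whether the IR effect in the scar zone exceeded that of the border zone was asked over all 16 libraries, where 8 members were tested and 0 passed the adjusted threshold (0% of genes). IL1R1 was the 1 member with a larger effect in the scar zone at an unadjusted p of 0.05 (1.96% of genes), with a difference of log2 fold changes of 0.90 ± 0.35 (SE, edgeR adjusted p = 0.9998). With the pig as a block, which uses the pairing of the zones within an animal, the difference was 0.80 ± 0.33 (SE, edgeR adjusted p = 0.702). IL1R1 was again the 1 member of 8 at the unadjusted threshold (4.24% of genes). Without the block, 0 of 8 members were at this threshold when pig 9, 11 or 13 was left out (0.944%, 1.24% and 1.37% of genes in either direction).

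Within IR pigs, the members with an unadjusted p of 0.05 or less between scar and border zones were IL18 (2.32-fold, edgeR adjusted p = 0.567) and IL1R1 (1.69-fold, adjusted p = 0.497), both higher in the scar zone, which is 2 of 8 members against 5.51% of genes, with 0 past the adjusted threshold (0% of genes). Without pig 9, 0 of 8 members were at the unadjusted threshold (2.97% of genes in either direction) and the log2 difference of IL18 was 0.71 instead of 1.21. The log2 difference of IL1R1 was 0.75, and it ranged from 0.47 to 1.00 when a pig was left out. IL18 held 0.809 and 0.483 CPM in pig 2, 3.03 and 0.683 in pig 9, 2.34 and 1.09 in pig 11, and 0.613 and 0.701 in pig 14 (scar, then border), so that pig 14 was lower in the scar zone. With the pig as a block, 4 members passed the unadjusted threshold, IL18, IL18R1, IL1R1 and IL10, against 10.2% of genes, and their adjusted p-values were 0.207 to 0.259. In the blocked fit the log2 difference of IL18R1 was 0.73 ± 0.25 and that of IL10 was 0.77 ± 0.33 (SE). The scar value exceeded the border value in 4 of 4 IR pigs for IL10, IL18R1 and IL6, 2 of these being among the 8 members past the filter, against 10.6% of genes, and IL6 in pig 2 rested on 1 count in each zone. For IL10 the pairs were 1.10 and 0.821 CPM in pig 2, 1.70 and 0.911 in pig 9, 2.52 and 1.15 in pig 11, and 0.409 and 0.351 in pig 14 (scar, then border). In the females these rested on 19 and 17 counts in pig 2 and on 6 and 6 counts in pig 14, so that the zones did not differ detectably there at this depth. For IL18R1 they were 1.73 and 0.725 CPM in pig 2, 2.38 and 1.99 in pig 9, 2.64 and 1.43 in pig 11, and 1.23 and 0.760 in pig 14. For IL1R1 the rise was that of the males, 27.4 against 12.1 CPM and 31.7 against 12.01 CPM, while the females held 12.4 against 14.4 and 13.7 against 12.2 CPM.

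Between the zones of sham pigs, 0 of 8 members passed either threshold (0% of genes at the adjusted one, and 0.147% higher and 0.273% lower at the unadjusted one). IL6R differed in the same direction in each animal. It was higher in the scar zone in 4 of 4 sham pigs, at 21.2 against 17.2, 40.0 against 31.3, 26.3 against 21.5 and 28.3 against 23.0 CPM. The within-pig log2 difference was 0.31 ± 0.03 (SD, n = 4 pigs). IL6R was the 1 member of 8 with this pattern, against 6.84% of genes, a count too small to set it apart. With the pig as a block IL6R was the 1 member past the unadjusted threshold (log2 difference 0.31 ± 0.11, SE, edgeR adjusted p = 0.999, against 1.41% of genes). In IR pigs the same difference was 0.23 ± 0.32 (SD, n = 4 pigs), with pig 9 lower in the scar zone, and the change in this difference with surgery was -0.08 (exact permutation p = 0.714). The within-pig scar minus border difference in log2 CPM was larger in IR than in sham pigs by 0.81 for IL10 (exact permutation p = 0.114). It was larger by 0.60 for IL18R1 (exact permutation p = 0.0857), 1.67 for IL6 (p = 0.0857) and 0.75 for IL1R1 (p = 0.143). Each of these tests set 4 against 4 pigs. The 27 exact permutation tests of members, which include IR against sham within each zone, gave no value at the smallest possible p.

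**Figure D4:**
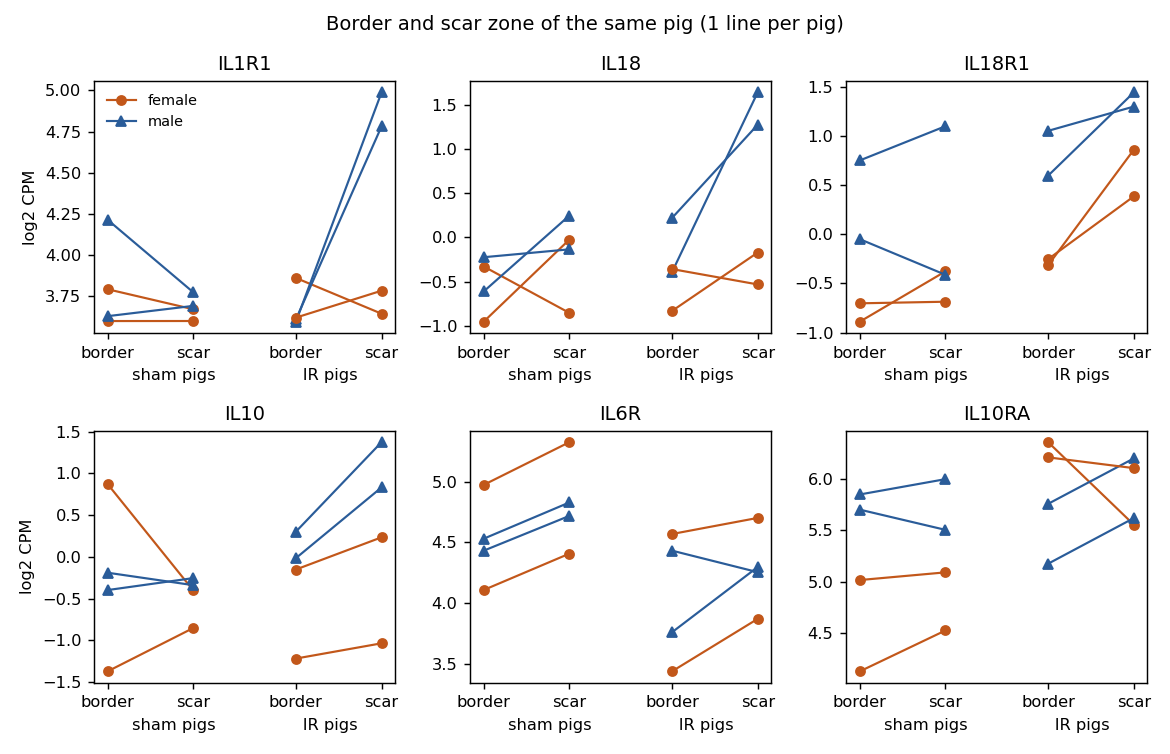
log2 CPM in the border and scar zone of the same pig, 1 line per pig, for 6 members. Sham pigs are on the left of each panel and IR pigs on the right. The lines of IL18R1 and IL10 rise in all 4 IR pigs, for IL10 in the females on near-equal counts (19 and 17, 6 and 6), those of IL1R1 rise steeply in the 2 IR males, and those of IL6R rise in all 4 sham pigs.

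The partners of these genes were described from lists written with earlier results of these data known. Of 13 partner genes, 11 were listed, and IL1B and IL1RN, the IL-1β ligand and the receptor antagonist, have no row under their symbols. The shared chains did not pass either threshold between IR and sham scar zones: IL6ST was at 161 ± 60.9 against 122 ± 21.8 CPM, IL10RB at 34.1 ± 2.62 against 30.04 ± 6.03, IL1RAP, the co-receptor of IL1R1 and IL1RL1, at 5.26 ± 1.42 against 4.65 ± 0.88, and SIGIRR, an inhibitory receptor of the family, at 4.17 ± 0.46 against 3.82 ± 0.91 CPM (SD, n = 4 pigs each), with adjusted p-values from 0.539 to 0.824 (edgeR). IL1A, IL1R2 (a decoy receptor) and IL18RAP (the second IL-18 receptor chain) had at most 20, 12 and 12 counts in any library, with 0 to 20 counts of IL1A in IR and 0 to 3 in sham scar zones. None of the partner genes passed the adjusted threshold.

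Of the 5 tested genes of the inflammasome list, which makes mature IL-1β and IL-18, 3 were higher in the IR scar zone at an unadjusted p of 0.05 and 0 were lower (6.57% and 4.64% of all genes tested), and the list median was 0.76 against 0.0285 for all genes. CASP1, which cuts the IL-18 precursor, averaged 7.91 ± 5.47 CPM in the scar zone of IR pigs against 3.06 ± 1.59 CPM in sham pigs (SD, n = 4 pigs each). Its log2 fold change was 1.37 ± 0.52 (SE, edgeR adjusted p = 0.438). The IR males held 8.58 and 15.4 CPM and the IR females 3.99 and 3.68 CPM, within the sham range of 1.38 to 5.11. NLRP3, the sensor, was at 6.17 ± 2.79 against 3.42 ± 0.80 CPM, again with the males at 8.18 and 8.65 CPM and the females at 2.71 and 5.11 CPM. PYCARD, the adaptor, was the other (log2 fold change 0.76 ± 0.33, SE).

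In the IL-6 family list 4 of 13 tested genes were higher and 0 lower at the unadjusted threshold (6.57% and 4.64% of all genes), with a median of 0.40. Among them were LIF (1.48 ± 0.49) and CLCF1 (1.17 ± 0.35), which encode ligands of receptors that use gp130, and OSMR (0.63 ± 0.23), a receptor, in log2 fold change ± SE. LIF was at 2.47 and 2.01 CPM in the IR males, 0.751 and 0.545 CPM in the IR females and 0.452 to 0.672 CPM in sham pigs. In the JAK-STAT list 3 of 22 were higher, SOCS3 and STAT3 among them, and 1 lower (SOCS7), against the same shares of all genes. SOCS3, the feedback inhibitor of gp130 signalling, was at 11.4 and 45.6 CPM in the IR males, 9.94 and 6.88 CPM in the IR females and 5.39 to 8.93 CPM in sham pigs. STAT3 was at 151 ± 19.1 against 118 ± 7.86 CPM (SD, n = 4 pigs each), a log2 fold change of 0.34 ± 0.12 (SE, edgeR adjusted p = 0.438), and its 4 IR values, from 131 CPM, lay above the 4 sham values, up to 125 CPM, as did those of 2.2% of all genes.

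The IL-1 signalling list had 2 of 21 genes higher (IRAK4 and NFKBIZ, against 6.57% of all genes), 3 lower (IKBKB, TAB1 and TOLLIP, against 4.64%) and a median of -0.06. NFKBIZ, an NF-κB cofactor induced by IL-1, was at 16.9 and 38.3 CPM in the IR males and at 4.22 and 4.09 CPM in the IR females, and TOLLIP, an inhibitor in the pathway, had a log2 fold change of -0.54 ± 0.17 (SE). The IL-10 family list had 1 of 5 higher (IFNLR1), and the IL-1 family ligand and receptor list 0 of 2. In the border zone the 6 lists together had 1 gene higher and 1 lower (NFKBIA), against 2.09% and 1.69% of all genes. No list gene passed the adjusted threshold in either zone (edgeR). List genes named here with a fold change under 2, other than the partner genes, were picked out after their values were seen.

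**Figure D5:**
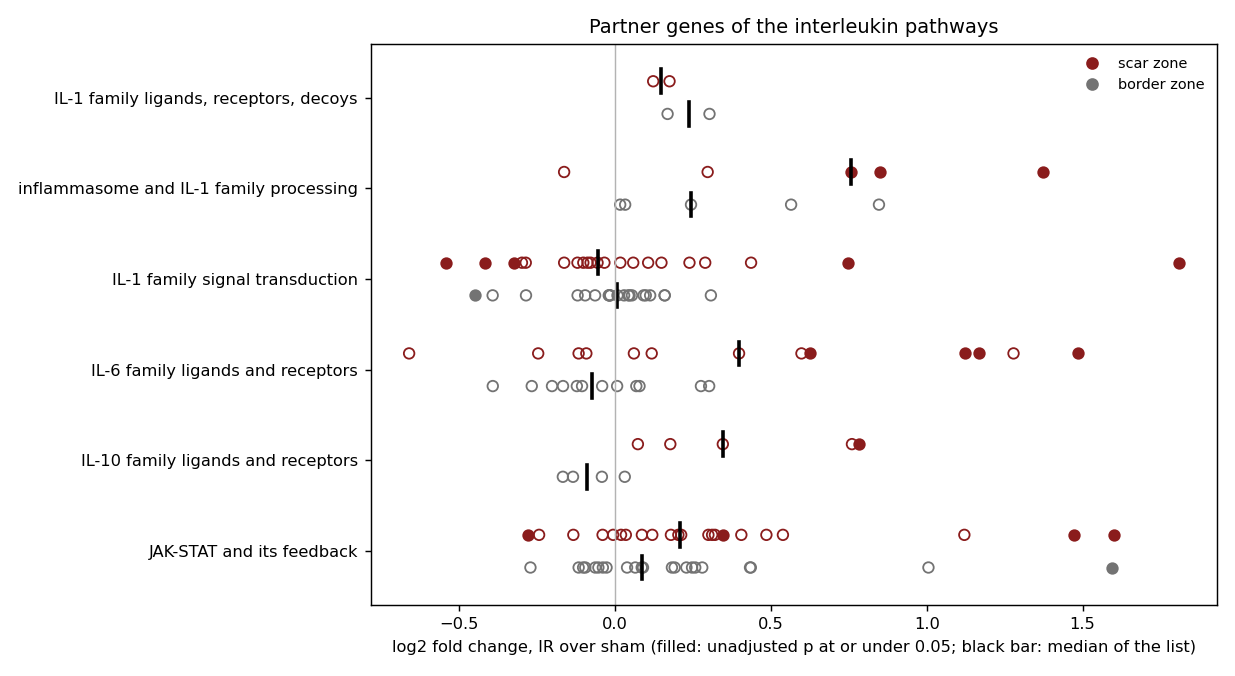
log2 fold change of IR over sham for the tested genes of 6 pathway lists, scar zone in red and border zone in grey. Filled points have an unadjusted p of at most 0.05, and the black bar is the list median. The inflammasome list has its scar zone median at 0.76, and the IL-1 signalling list is centred near 0.

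Genes with the most similar pattern were taken as the 3 highest Pearson correlations of log2 CPM over the 16 libraries, which share animals, depth and tissue composition. They are a description without a test. IL1R1 was closest to LIMA1 (r = 0.953), CTSH (0.946) and RARRES2 (0.935). IL33 was closest to DUOX2 (0.940), CDO1 (0.908) and DCN, the matrix proteoglycan decorin (0.884). IL18 was closest to TBX18 (0.930), FAP, a protease of activated fibroblasts (0.920), and CTSL (0.918), and IL1RL1 to KLHL5 (0.892), SRGN (0.867) and NPC2 (0.863). IL18R1 had ST7L (0.882) and SMUG1 (0.873) among its closest, IL6R was closest to NIPAL3 (0.942), MBD5 (0.920) and ARHGAP31 (0.910), IL10 to BICDL1 (0.904), RBM47 (0.904) and GMFG (0.897), and IL10RA to GABRA4 (0.896), GPX8 (0.892) and UBE2G1 (0.888). Among the members themselves, the highest values over the same 16 libraries were r = 0.736 for IL1R1 and IL18, 0.694 for IL1R1 and IL1RL1, 0.690 for IL1R1 and IL33 and 0.685 for IL10 and IL1RL1. The ligand and receptor pairs had r = 0.606 for IL18 and IL18R1, 0.477 for IL33 and IL1RL1 and 0.251 for IL10 and IL10RA.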

How the data were processed

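Polyadenylated RNA of 16 samples (4 IR and 4 sham pigs, scar and border zone) was sequenced from stranded libraries. Per the submitters' processing notes, Trimmomatic 0.33, HISAT2 2.0.5 and kallisto 0.43.1 were used. The authors deposited estimated counts, sums of partial assignments of reads to Ensembl pig transcripts, and TPM, the deposited estimates scaled for transcript length and depth. The genome build is not given in the sources used here. Names were matched to the RefSeq table of Sscrofa11.1.

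Surgery, zone, sex and pig came from the sample labels. Estimated counts were rounded and tested in edgeR 4.0.16 (R 4.3.3) with TMM scaling, filterByExpr (minimum count 10, minimum total 15), the quasi-likelihood test and Benjamini-Hochberg adjustment over all genes tested, within each zone or over 16 libraries. Calls needed a fold change of 2 or more with an adjusted p of 0.05 or less. log2 CPM had a prior count of 2. Exact permutation tests were two-sided. The scar and border libraries of a pig come from the same animal, and their deviations from the group means correlated at 0.354 to 0.692 over 14278 genes, so the pig was also fitted as a block. Alternatives were DESeq2 1.42.0, upper-quartile scaling, no filter, sex as a covariate, 1 factor of unwanted variation, 1 fit of all 16 samples, limma 3.58.1 on log2 TPM, other pseudocounts and leaving out each pig. Leaving out pigs in the comparisons of the sexes was added after seeing the data. The edgeR step was tested on simulated data in which the spread was capped and only genes with higher levels were changed. It therefore does not show how the fit behaves for the low members or for the spread between these pigs.

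The members and gene lists were chosen with earlier results of these data known. Named were the members, the fixed partner genes, list genes past an unadjusted p of 0.05 with a fold change of 2, and the 3 genes most like each member. A few genes that this rule names are not reported here.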

Additional observations from a re-analysis of the deposited data

Results flagged for a closer look

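Each of the 9 listed genes was looked at in each group of 4 for a library far from the others (a gap to the nearest value that is most of the group's range), and 3 of 36 groups had one, where chance gives about 1 in 20. IL18R1 was at 2.06 CPM in the sham scar zone of pig 12, and the border zone of the same pig was also the highest of the sham pigs (1.60 CPM). IL1R1 was at 14.4 CPM in the IR border zone of pig 2, whose 3 companions held 12.01 to 12.2 CPM. IL1RL1 was at 0.67 CPM in the IR border zone of pig 11, which gave 28.9 of the 33 counts of that group.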

How the results depend on the processing

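Groups of 4 pigs, with 2 of each sex, and the low counts of IL6, IL1RL1, IL18 and IL10 limit what could be detected. Of 807 alternative values of 75 results, 734 were counted as unchanged. For this, fitted values and ratios kept their direction and side of the threshold, and counts were equal or close to the main count. Most main values lay far from the adjusted threshold, so staying on its side says little. The causes of the changes below were not tested. Genes called in the scar zone (0) were 52 in DESeq2, 3, 1 and 1 in limma on log2(TPM + 1), log2(TPM + 0.1) and log2(TPM + 1) without a filter, and 470 at the unadjusted p. In the border zone (0) they were 2 in DESeq2 and 109 at the unadjusted p, and between zones of IR pigs (0) 24 in DESeq2. For the sexes, the 210 genes of the scar zone were 708 in DESeq2, 430 without a filter and 1 to 160 when a pig was left out, and the 2 genes of the border zone were 45, 10 and 0 to 6. Members at an unadjusted p in the scar zone (3) were 5 with sex as a covariate and 0 to 5 when a pig was left out. Leaving out a pig gave 0 to 1 members in the border zone, 0 to 1 for the difference between zones, 0 to 2 within IR pigs, 2 to 4 for the scar zone sexes and 1 to 2 for the border zone sexes. With the pig as a replicate block, members at an unadjusted p rose from 2 to 4 within IR pigs and from 0 to 1 within sham pigs, no other count of calls changed, and the log2 difference of IL10RA within IR pigs turned from -0.04 to 0.0025. In the scar zone limma on log2(TPM + 1) without a filter gave 0.61 for IL10 (1.15) and 0.26 for IL18R1 (1.00), and limma on log2(TPM + 0.1) gave 0.77 for IL10RA (0.51). Signs also turned for values near 0 in the border zone: IL33 (0.02) was -0.0097 with sex as a covariate, -0.023 with the factor of unwanted variation and -0.16 to 0.25 when a pig was left out, IL18 (0.26) was -0.025, -0.0055 and -0.025 in the 3 limma fits and -0.0067 to 0.41, IL10 (-0.09) was 0.0013 in limma without a filter and -0.37 to 0.47, and IL1RL1 without a filter (-0.22) was -2.21 to 0.35. IL10RA turned without pig 2: when a pig was left out it ranged from -0.29 to 0.16 for the difference between zones and from -0.23 to 0.22 within IR pigs. Between the sexes in the scar zone, IL6R ranged from -0.42 to 0.58 and IL18R1 from -0.97 to 0.63. With a pseudocount of 1, the scar zone difference of log2 ratios was -0.29 for IL1RL1 over IL33 (0.07) and 0.11 for IL10RA over IL10 (-0.21), and it was -0.99 for IL6R over IL6 (-2.31).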
